A study of Mus musculus with 4 samples.

Results

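Pericentral hepatocytes without high Glul are the liver cells around the central vein that lie outside the innermost, glutamine-synthetase-rich ring. They were picked out of single-cell RNA data, chosen by the measured levels of 9 genes and by depth. Hepatocytes were barcodes in which Alb, Apoa1, Apoa2, Apoc3 and Ttr together held at least 4% of the nuclear-encoded UMIs (unique molecular identifiers, 1 per captured transcript) and the leukocyte gene Ptprc had 0 UMIs. Members were the hepatocytes with at least 3000 UMIs in total and, per 1000000 nuclear-encoded UMIs (CPM, counts per 1000000), at least 5000 of Cyp2e1, under 500 of Cyp2f2 and under 1000 of Glul. The rule found 156 cells among 28199 kept barcodes, or among 5633 hepatocytes of at least 3000 UMIs. Of these, 0 were in the HCC library, 38 in the high-AFP library, 23 in the low-AFP library and 95 in the control library.

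The series title places the 4 libraries in a study of the path from obesity to hepatocellular carcinoma (HCC) in C57BL/6 mice on a diet abbreviated CD-HFD. Each group was 1 library: HCC, whose source is a suspension from the tumour region; high-AFP; low-AFP, titled CD-HFD; and control, titled Control Diet. The high-AFP title also names the control diet while its file name has CD-HFD, so it is called here by its AFP label, which the labels define no further. All titles give an age of 15 months and the age field 17 months. The same protocol text stands for all 4: collagenase perfusion, a 30% Percoll step for parenchymal cells, live sorting of the other cells, and a mix of both in equal parts. The labels do not say whether animals were pooled. With 1 library a group there is no replicate, so no test was made and every difference below describes these libraries only.

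Hepatocytes differ along the path of blood from the portal triad to the central vein. Around the central vein, Wnt signals from the vessel sustain the genes of drug and alcohol oxidation, such as Cyp2e1, and in the innermost layer those of glutamine synthesis (Glul) and of glutamate and ornithine handling (Slc1a2, Oat). At the portal side hepatocytes carry urea synthesis, amino acid breakdown and glucose production, and Cyp2f2 marks that side in mice. The members are thus taken, by these markers, as pericentral cells outside the Glul ring, a zone known for cytochrome P450 enzymes, bile acid synthesis and fat storage. Their place in the tissue was not measured. Glul itself, Cyp2e1 and Cyp2f2 were used by the rule, and their values are given as description.

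The promoters of the Cyp2c genes are shown because these genes were lower within the zone in both AFP libraries, beside that of Cyp2e1, which chose the cells. Each line holds the 250 bases upstream of the start site, 5′ to 3′ on the gene's strand (plus for all 4), from RefSeq on GRCm38.p6. The positions are chr7:140763569-140763818 for Cyp2e1, chr19:39286835-39287084 for Cyp2c29, chr19:39992174-39992423 for Cyp2c37 and chr19:40089429-40089678 for Cyp2c50. Capitals mark a match to CTTTGAA or CTTTGAT, a form of the site bound by the Wnt-pathway TCF factors, searched on both strands.
Cyp2e1: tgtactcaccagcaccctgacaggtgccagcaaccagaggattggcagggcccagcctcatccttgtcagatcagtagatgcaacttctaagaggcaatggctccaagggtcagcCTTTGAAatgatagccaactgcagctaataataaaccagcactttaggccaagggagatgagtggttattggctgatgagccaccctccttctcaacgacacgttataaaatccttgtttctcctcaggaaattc
Cyp2c29: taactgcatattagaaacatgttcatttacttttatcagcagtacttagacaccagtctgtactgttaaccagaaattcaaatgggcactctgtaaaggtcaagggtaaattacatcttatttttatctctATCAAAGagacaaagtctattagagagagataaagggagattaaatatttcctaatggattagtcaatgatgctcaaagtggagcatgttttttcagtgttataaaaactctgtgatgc
Cyp2c37: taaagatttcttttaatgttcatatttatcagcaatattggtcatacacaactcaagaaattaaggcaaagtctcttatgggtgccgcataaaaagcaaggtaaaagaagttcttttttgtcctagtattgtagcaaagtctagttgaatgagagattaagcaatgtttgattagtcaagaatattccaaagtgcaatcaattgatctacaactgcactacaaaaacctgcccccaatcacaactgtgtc
Cyp2c50: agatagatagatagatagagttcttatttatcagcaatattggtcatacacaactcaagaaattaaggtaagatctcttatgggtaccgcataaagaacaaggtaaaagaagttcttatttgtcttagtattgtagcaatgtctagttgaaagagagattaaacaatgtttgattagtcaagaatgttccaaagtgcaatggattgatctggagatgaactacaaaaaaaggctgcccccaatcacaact
Cyp2e1 held CTTTGAA on its own strand at positions -135 to -129 from the start site. Cyp2c29 held CTTTGAT on the opposite strand at -119 to -113, which reads as ATCAAAG here. Neither form was in the Cyp2c37 or the Cyp2c50 window. Of 32851 such promoters in the table, 2457 (7.48%) held at least 1 match. The Cyp2c37 and Cyp2c50 windows were alike at 215 of 250 positions (86.0%), against 65.2% for Cyp2c29 with Cyp2c37 and 64.4% for Cyp2c29 with Cyp2c50.

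The libraries held 65326793 UMIs (HCC), 97393862 (high-AFP), 80505127 (low-AFP) and 71957655 (control), and filters removed 10.4%, 26.5%, 42.1% and 42.8% of their barcodes in that order. Summed over members there were 828515, 701238 and 1891539 UMIs in high-AFP, low-AFP and control, at a median of 23949, 28163 and 19834 per cell. The median mitochondrial share of a member was 18.8% in high-AFP (11.7% to 28.7%), 19.9% in low-AFP (9.38% to 29.1%) and 24.6% in control (17.1% to 29.8%). Any 2 libraries shared 3 to 29 kept barcodes, and no 2 shared a member. Of 20 immune markers, 12, 12 and 13 had a UMI in the members of high-AFP, low-AFP and control, and summed to 168, 136 and 119 CPM. Cd3e, Cd3g, Ms4a1, Cd79a, Nkg7 and S100a9 were at 0. The 13 endothelial markers summed to 44.7, 125 and 162 CPM, the 11 mesenchymal ones to 4.47, 8.81 and 54.7 CPM and the 10 cholangiocyte ones to 8.94, 19.4 and 7.71 CPM, with Krt19 and Krt7 at 0. In control, 80.6% of the UMIs of the mesenchymal gene Dcn were in 1 cell.

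Cells that met the rule were found in each library but HCC. Members were 0 of 117 hepatocytes of sufficient depth in HCC, where 3 counts in place of 0 would give 2.56% and the exact interval reached 3.10%. They were 38 of 1969 in high-AFP (1.93%, exact binomial 95% interval 1.37% to 2.64%), 23 of 1405 in low-AFP (1.64%, 1.04% to 2.45%) and 95 of 2142 in control (4.44%, 3.60% to 5.39%). All intervals here cover counting error only. The share, which the rule's own genes set, was below the control share in both AFP libraries. Cells of 1 library are not replicates, so the intervals do not compare groups.

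The share depends on where the thresholds lie. With Cyp2e1 at 2500 or more, a limit added after the data were seen, the shares were 8.38% in high-AFP, 7.40% in low-AFP and 8.82% in control. Among hepatocytes with a mitochondrial share of at most 20%, also added, members were 22 of 1303 in high-AFP (1.69%), 12 of 903 in low-AFP (1.33%) and 9 of 668 in control (1.35%). The higher control share was thus not seen at that limit, and the gap was narrower at the lower Cyp2e1 threshold. In HCC 1 of 117 hepatocytes had at least 2500 CPM of Cyp2e1 and met the rest of the rule. At the planned limit of 15% mitochondrial UMIs, 0 of 254 control hepatocytes were members.

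Other zones were cut by the same values. Hepatocytes with as much Cyp2e1 and at least 1000 CPM of Glul (Glul-high) made up 1.71% in HCC, 1.37% in high-AFP, 0.996% in low-AFP and 1.73% in control. Periportal hepatocytes, with at least 500 of Cyp2f2 and under 5000 of Cyp2e1, made up 4.27%, 58.2%, 59.1% and 75.8% in the same order. Hepatocytes under both thresholds made up 94.0%, 38.4%, 38.2% and 18.1%. In HCC nearly all hepatocytes thus carried neither zone marker at these levels. Among all cells over the Cyp2e1 threshold and under that of Cyp2f2, members were 0 of 2 in HCC, 38 of 65 in high-AFP (58.5%, 45.6% to 70.6%), 23 of 37 in low-AFP (62.2%, 44.8% to 77.5%) and 95 of 132 in control (72.0%, 63.5% to 79.4%).

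**Figure D1:**
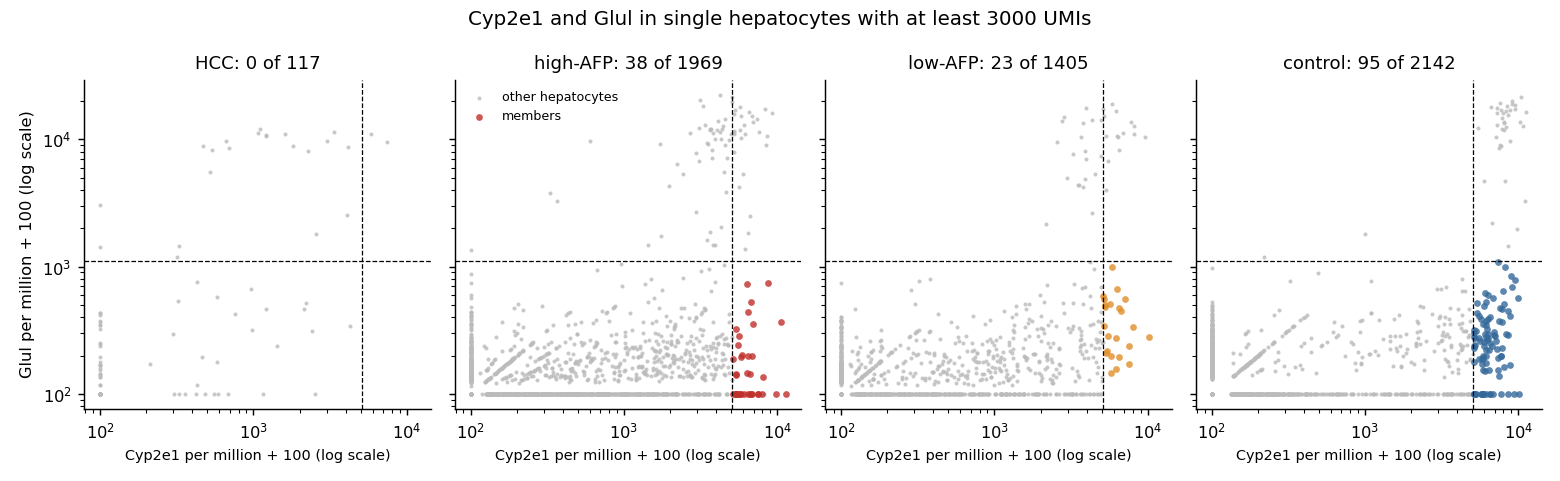
Each point is 1 hepatocyte with at least 3000 UMIs, by its Cyp2e1 (x) and Glul (y) level in CPM, plus 100, on log axes, in 1 panel a library; dashed lines are the thresholds of 5000 and 1000. Members lie right of the Cyp2e1 line and below the Glul line: 0 of 117 in HCC, 38 of 1969 in high-AFP, 23 of 1405 in low-AFP and 95 of 2142 in control.

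The genes of the rule had the levels it imposes. Cyp2e1, which oxidises ethanol and paracetamol, was at 6424 CPM in high-AFP members, 6006 CPM in low-AFP members and 6522 CPM in control members. Glul was at 106, 301 and 210 CPM, with 19 of the 38 high-AFP members, 0 of the 23 low-AFP members and 19 of the 95 control members at 0 UMIs. Albumin (Alb) was at 25192, 33457 and 39782 CPM. Members sat near the Cyp2e1 threshold in all 3 libraries: the highest member had 11240, 10036 and 10007 CPM, and 2, 1 and 1 cells exceeded 10000.

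Cells close to the Cyp2e1 threshold differed by library on both sides of it. Just inside it, from 5000 to 5500 CPM, 11 high-AFP, 8 low-AFP and 19 control cells had Cyp2c29, a drug-oxidising P450 enzyme, at 552, 327 and 920 CPM. Just outside, from 4500 to 5000, 12, 17 and 15 cells had it at 291, 396 and 1082 CPM. On either side control was the highest. The Glul threshold cut through few cells. From 500 to 1000 CPM there were 2, 2 and 7 members, and from 1000 to 1500 there were 1, 0 and 1 cells outside.

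Against periportal hepatocytes the members had the gene set of their zone, a contrast that the rule itself makes and that is given as description. Over 6602 genes, 88 were higher by 2-fold or more and 51 lower by as much in members in each of the 3 libraries. The log2 difference, members over periportal cells, was 3.91 in high-AFP, 3.58 in low-AFP and 4.62 in control for Cyp2c50. For Gulo, the last enzyme of vitamin C synthesis in mice, it was 2.56, 2.91 and 4.58. Serpina7, thyroxine-binding globulin, stood at 3.51, 3.88 and 3.98. Histidine breakdown by Hal (-4.49, -5.13 and -4.89) and serine breakdown by Sds (-4.30, -4.41 and -4.59) were on the other side. Cyp2c29, Cyp2c50 and Gulo, the zone's markers besides Cyp2e1, were therefore all higher in members than in the periportal cells of their own library.

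**Figure D2:**
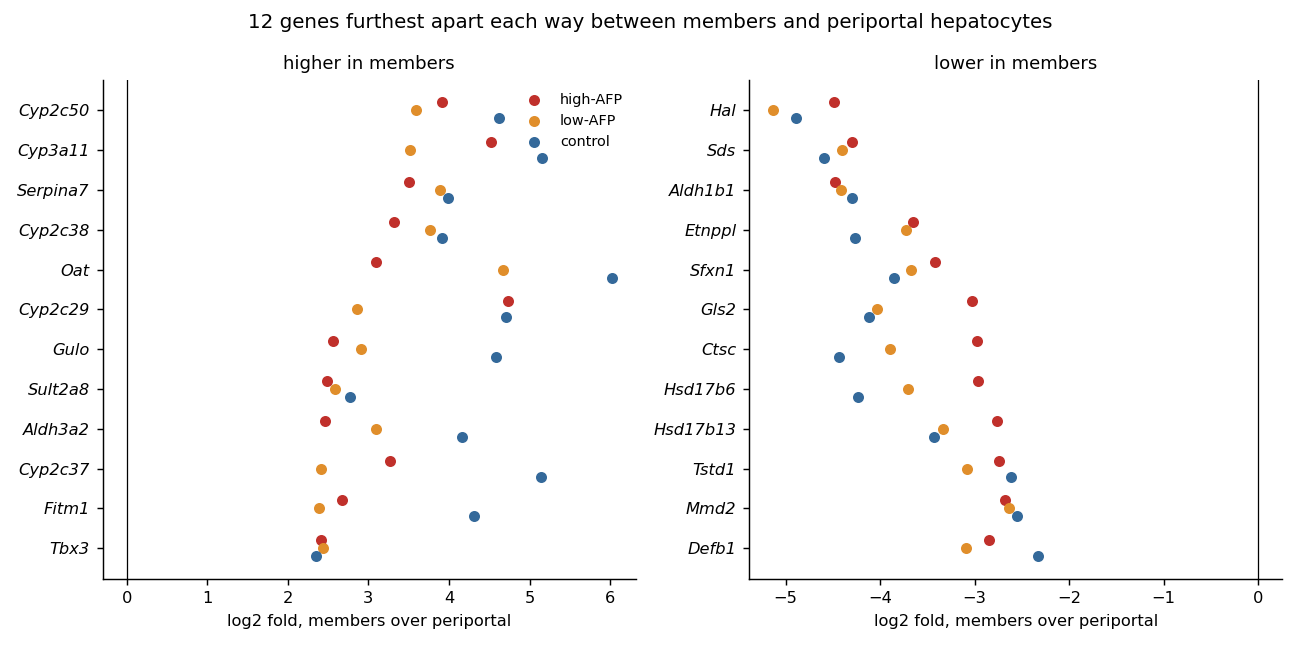
Log2 fold of members over periportal hepatocytes for 24 genes, as 3 points a gene for high-AFP, low-AFP and control. In each direction genes were ranked by the smallest of their 3 library folds. Genes of the rule and the gene types left out of naming were not ranked. The x axis is log2 of the ratio of summed CPM, plus 10. The genes were taken from those at least 2-fold different the same way in every library, so their side is set by the choice; Hal, for example, is at -4.49, -5.13 and -4.89.

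Against the Glul-high ring, 11 genes were higher by 2-fold or more and 12 lower in members in each library, of 6422. Urea cycle genes led the higher ones: Cps1, which makes carbamoyl phosphate, by 4.61, 3.89 and 4.26 log2 units in high-AFP, low-AFP and control, Arg1, arginase, by 4.40, 2.69 and 3.92, and Ass1 by 2.50, 2.52 and 1.84. The iron hormone Hamp and the growth factor binding protein Igfbp2 were among them too. Slc1a2, a glutamate transporter, was lower in members by -5.44, -3.50 and -3.08, and Oat, ornithine aminotransferase, by -3.17, -3.11 and -1.94. Cyp1a2 (-1.94, -1.16 and -1.56) and Cyp2c37 (-1.05, -2.95 and -1.01) were also higher in the ring. Control members thus lay nearer to the ring in Oat than members of the AFP libraries did. The zone's markers were higher in the ring as well. In ring cells of at least 1500 CPM of Glul (26 in high-AFP, 14 in low-AFP and 36 in control), Cyp2c29 was at 944, 1372 and 2500 CPM. Cyp2c50 was at 1011, 1062 and 1880 CPM there and Gulo at 1346, 1200 and 1329 CPM, each above the member level of its library.

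Between libraries, 98 of 7531 measured genes (1.3%) were higher by 2-fold or more and 94 (1.25%) lower by as much in high-AFP than in control members. In low-AFP against control members, 107 of 7614 (1.41%) were higher and 109 (1.43%) lower. Measured means at least 10 CPM in either library, and log2 folds are of the ratio of summed CPM after adding 10 to each, so folds of weakly detected genes are understated. Over all measured genes the median log2 fold was under 0.01 in size for high-AFP and 0.06 for low-AFP against control. Both comparisons use the same control library and are given side by side. The shares of all measured genes given here are the background for the list counts against control below.

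A set of 4 Cyp2c genes, of the P450 family that oxidises drugs and arachidonic acid, were lower in the members of both AFP libraries. Cyp2c29 was at 644 CPM (exact Poisson 95% interval 585 to 708) in high-AFP, 472 CPM (417 to 532) in low-AFP and 1347 CPM (1290 to 1410) in control members. Single cells ranged from 0 to 2582 with a median of 426.5 CPM in high-AFP, from 106 to 1281 with a median of 428 in low-AFP and from 230 to 4020 with a median of 1178 in control. The ranges of cells overlap. The 3 intervals of the summed level do not, but they cover counting error only and leave out the spread among cells and animals. The log2 fold against control was -1.05 (-1.25 to -0.85, from the ends of both intervals) for high-AFP and -1.49 (-1.73 to -1.26) for low-AFP. Cyp2c50 was at 601, 504 and 1383 CPM in high-AFP, low-AFP and control, a fold of -1.19 and of -1.44.

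Cyp2c37 had the largest difference of the 4. It was at 136 CPM (109 to 167) in high-AFP members, 75.8 CPM (54.8 to 102) in low-AFP members and 754 CPM (709 to 800) in control members. A UMI was found in 26 of 38, 17 of 23 and 91 of 95 cells, with a median of 83.6, 53.2 and 673 CPM per cell. The fold against control was -2.39 (-2.76 to -2.03) for high-AFP and -3.15 (-3.64 to -2.68) for low-AFP. Cyp2c54 was at 93.9, 33.5 and 331 CPM, in 20, 6 and 91 cells, a fold of -1.71 and of -2.97. At an equal depth of 3000 UMIs per cell, Cyp2c37 was seen in 23.7% of high-AFP, 26.1% of low-AFP and 66.3% of control members. T cells, which should lack it, showed it in 0.403%, 0.465% and 3.09%, at median depths of 5101.5, 5339.5 and 4575 UMIs before thinning, so the share of members was above that of T cells in each library. Unthinned, 68.4%, 73.9% and 95.8% of members had a UMI of it.

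Another gene of the family, Cyp2c69, had 0 UMIs in both AFP libraries and was at 23.8 CPM in control members. The control level was 5.33-fold what 3 counts would give in high-AFP and 4.51-fold in low-AFP, leaving out the counting error of control. Cyp2c38, of the same family, stayed under 2-fold, and was at 99.9 CPM in high-AFP, 178 CPM in low-AFP and 165 CPM in control members (-0.67 and 0.11 against control). Gulo differed little, at 647, 712 and 716 CPM, with folds of -0.15 (-0.37 to 0.08) and -0.01 (-0.24 to 0.22). Cyp3a11, a major drug-oxidising enzyme, was at 2957, 3874 and 2525 CPM (0.23 and 0.62). Cyp1a2, which oxidises caffeine, was at 159, 164 and 315 CPM, with folds of -0.94 and -0.90 that stay under 2-fold. Of 14 measured pericentral P450 genes, 0 were higher and 4 lower in high-AFP against control (median -0.65), and 0 higher and 5 lower in low-AFP against control (median -0.45). The fifth in low-AFP was Cyp2a5, at 162 CPM in high-AFP, 66.9 CPM in low-AFP and 227 CPM in control (-0.46 and -1.62).

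**Figure D3:**
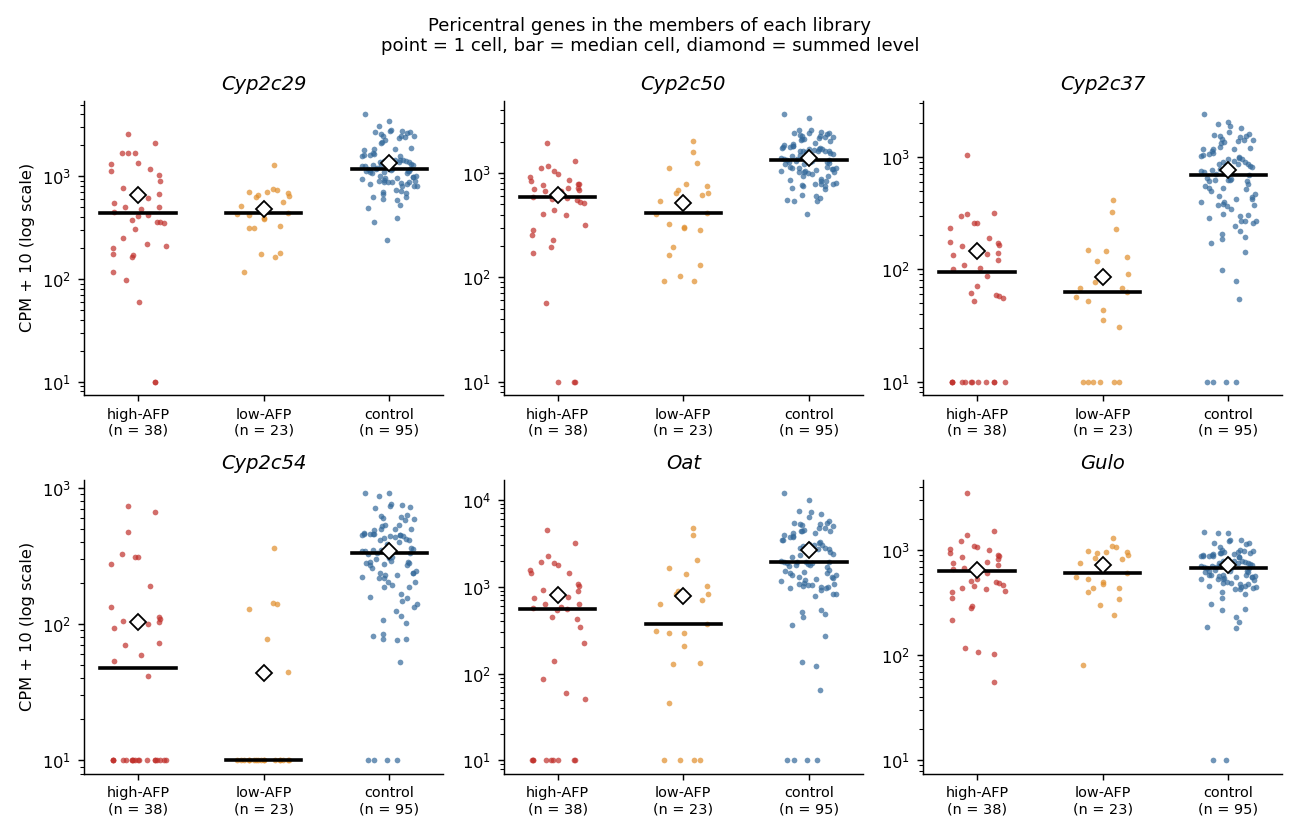
Level of 6 pericentral genes in single members of high-AFP, low-AFP and control (CPM plus 10, log axis); points are cells, bars the median cell and diamonds the level summed over cells. Cyp2c29, Cyp2c50, Cyp2c37, Cyp2c54 and Oat are lower in both AFP libraries than in control (Cyp2c37 at 136, 75.8 and 754 CPM), while Gulo is at 647, 712 and 716 CPM.

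The mitochondrial share differed between libraries, so the Cyp2c values were also taken in members of at most 20%, with 22, 12 and 9 cells. There the folds against control were -1.94 for high-AFP and -3.29 for low-AFP in Cyp2c37, -1.66 and -2.97 in Cyp2c54, -0.96 and -1.54 in Cyp2c29, and -0.92 and -1.21 in Cyp2c50. Cyp2c29 and Cyp2c50 thereby came under 2-fold in high-AFP. The Cyp2c37 and Cyp2c50 transcripts shared 0.499% of the sequence windows of their last 500 bases with other genes, and Cyp2c29 and Cyp2c54 shared none. Periportal cells of the same libraries had folds of -1.09 and 0.36 in Cyp2c29, -0.48 and -0.41 in Cyp2c50, and -0.52 and -0.42 in Cyp2c37. In ring cells of at least 1500 CPM of Glul, Cyp2c37 was at 315, 651 and 1552 CPM in high-AFP, low-AFP and control. Cyp2c29 and Cyp2c50 were also lower in both AFP libraries there. In all hepatocytes of at least 3000 UMIs the folds were -1.97 and -1.70 in Cyp2c37, and -1.23 and -1.62 in Cyp2c54. They were -1.16 and -0.67 in Cyp2c29, and -0.97 and -1.08 in Cyp2c50. The difference between zones was not tested.

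Within the zone, control members graded with their Cyp2e1. In 39 control cells of 5000 to 6000, 26 of 6000 to 7000 and 30 of at least 7000 CPM, Cyp2c37 was at 534, 680 and 1109 CPM. Oat was at 1774, 2779 and 3694 CPM, and Slc1a2 at 31.7, 114 and 350 CPM in the same bins. All 3 were highest in the cells richest in Cyp2e1. In the high-AFP bins of 18, 12 and 8 cells Cyp2c37 was at 120, 52.8 and 290 CPM and Oat at 812, 869 and 629 CPM, while Slc1a2 had 1, 1 and 9 UMIs. In the low-AFP bins of 12, 6 and 5 cells Cyp2c37 was at 79.6, 82.0 and 56.2 CPM and Oat at 649, 745 and 1142 CPM, while Slc1a2 had 4, 0 and 42 UMIs. The top bin was highest for Cyp2c37 and Slc1a2 in high-AFP, and for Oat and Slc1a2 in low-AFP. These bins were set after the planned ones, from 5000 to 10000 and above, had placed almost all cells together, and those of the AFP libraries hold few cells.

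Genes that were higher in the Glul-high ring than in members differed both ways between libraries. Oat was at 790 CPM in high-AFP, 765 CPM in low-AFP and 2645 CPM in control members, a fold of -1.73 and of -1.78 against control. Single cells had a median of 545, 365 and 1903 CPM and a maximum of 4544, 4776 and 12045 CPM. The high-AFP fold was -1.31 in members of at most 20% mitochondrial UMIs. In the Glul-high ring Oat was at 7166, 6672 and 10170 CPM, and in periportal cells at 84.1, 20.6 and 30.9 CPM. Slc1a2 was at 16.4, 81.0 and 154 CPM, in 4, 5 and 23 cells, with folds of -2.63 and -0.84. One cell held 72.7% of its UMIs in high-AFP, and leaving that cell and the top cell of control out made the fold -3.35.

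Lgr5, a receptor that strengthens Wnt signals, had 2 UMIs in high-AFP members (2.98 CPM), 12.3 CPM in low-AFP members and 33.0 CPM in control members, from 47 UMIs in 33 cells. Of 13 measured Wnt target genes in high-AFP against control, 1 was higher and 4 were lower (median -0.69). The lower ones were Slc1a2, Oat, Lgr5 and Lhpp, a phosphatase at 29.8, 42.3 and 74.3 CPM in high-AFP, low-AFP and control (-1.08 and -0.69). The higher one was Slc13a3, a carrier of dicarboxylates, at 31.3, 37.0 and 10.5 CPM (1.01 and 1.20). In low-AFP against control 1 of 14 was higher and 1 lower (median -0.03). Axin2, a feedback inhibitor of the pathway, was at 7.45, 21.1 and 18.2 CPM, and Tbx3, a transcription factor of the zone, at 50.7, 54.6 and 43.5 CPM. In high-AFP 3 of the measured Wnt target genes thus lay above control and 10 below, against 7 and 7 in low-AFP. In high-AFP against low-AFP members 2 lay above and 12 below (median -0.38). Of 25 other pericentral genes, 0 were higher and 2 lower in high-AFP against control (median under 0.01 in size), and 1 higher and 2 lower in low-AFP against control (median -0.20). Those 2 in low-AFP were Oat and Prodh, proline dehydrogenase (124, 63.4 and 170 CPM, -0.43 and -1.29).

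Genes higher in the members of both AFP libraries included surface, secreted and lipid droplet proteins. Ly6d, a small surface protein, was at 157 CPM (128 to 189) in high-AFP, 132 CPM (104 to 166) in low-AFP and 3.51 CPM in control members, the last from 5 UMIs in 5 cells. The folds were 3.62 and 3.40. Serpina12, the secreted serpin vaspin, was at 350, 530 and 44.2 CPM (2.73 and 3.32). Mup20, a major urinary protein that carries pheromones in male mice, was at 16508, 16505 and 3231 CPM (2.35 and 2.35). Cidec, which fuses lipid droplets, was at 79.0, 107 and 11.9 CPM (2.02 and 2.42), in 23 of 38, 20 of 23 and 13 of 95 cells. Apoa4, an apolipoprotein of triglyceride-rich particles, was at 715, 1644 and 246 CPM (1.50 and 2.69). The median member of control had no UMI of Ly6d, Serpina12 or Cidec.

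**Figure D4:**
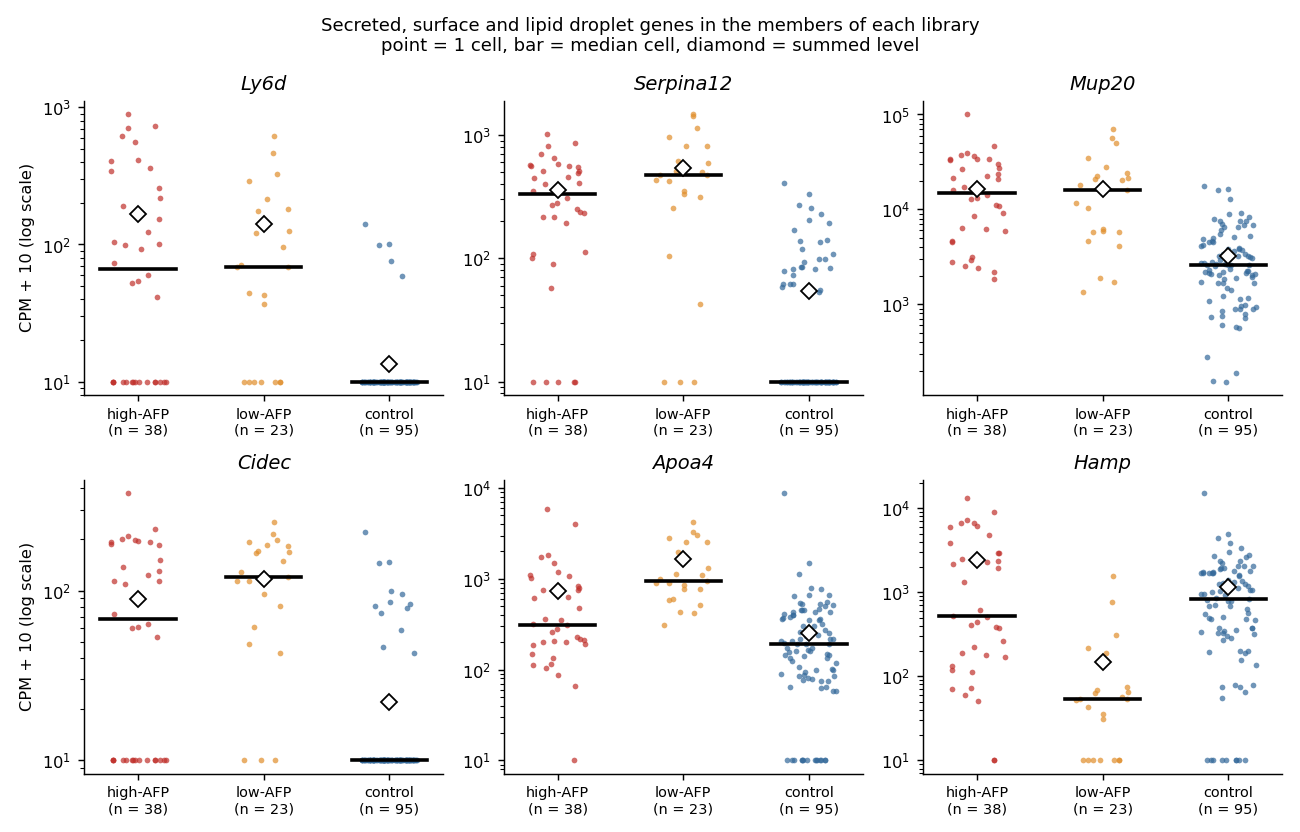
Level of Ly6d, Serpina12, Mup20, Cidec, Apoa4 and Hamp in single members of high-AFP, low-AFP and control (CPM plus 10, log axis); points are cells, bars the median cell and diamonds the level summed over cells. The first 5 are higher in both AFP libraries than in control (Cidec at 79.0, 107 and 11.9 CPM), while Hamp is at 2400, 137 and 1152 CPM.

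Some of these transcripts were also found in barcodes not called hepatocytes, which are of many cell types and can also hold free RNA. Non-hepatocyte barcodes of high-AFP, low-AFP and control held Ly6d at 156, 180 and 195 CPM, Serpina12 at 203, 135 and 49.1 CPM, and Mup20 at 7260, 3921 and 1775 CPM. Cidec was at 14.5, 6.17 and 0.751 CPM there, and Apoa4 at 138, 277 and 188 CPM. Control had the highest Ly6d level in these barcodes and the lowest in members. At 3000 UMIs per cell, Ly6d was in 23.7% (11.4% to 40.2%) of high-AFP, 21.7% (7.46% to 43.7%) of low-AFP and 1.05% of control members, against 12.9% (10.1% to 16.2%), 10.0% and 6.58% of T cells. The intervals of members and T cells overlap in high-AFP and in low-AFP (7.33% to 13.2% of T cells there). The control member share was not above that of T cells. Unthinned, 60.5%, 69.6% and 5.26% of members had a Ly6d UMI. Serpina12 was in 39.5%, 60.9% and 5.26% of members against 15.9%, 10.5% and 11.3% of T cells, again with control members not above T cells. Cidec was in 21.1%, 26.1% and 0% of members against 2.02%, 0% and 0.206% of T cells. Mup20 was in nearly all cells of both kinds. Free RNA was not subtracted, and its part in these differences was not tested.

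The same genes had other folds in periportal cells. Ly6d was at 3.17 for high-AFP and 2.91 for low-AFP against control there, much as in members. Serpina12 was at 0.57 and 0.24, Mup20 at 1.32 and 0.20, Cidec at 1.00 and 0.85, and Apoa4 at -1.26 and -0.35. Serpina7 was higher in both zones, at 434, 551 and 175 CPM in members (1.26 and 1.60) and with folds of 1.74 and 1.70 in periportal cells. Control periportal cells had 448 CPM of Serpina12 and 2052 CPM of Apoa4, above the 44.2 and 246 CPM of control members. In low-AFP periportal cells they stood at 529 and 1603 CPM, close to the 530 and 1644 CPM of low-AFP members. With members of at most 20% mitochondrial UMIs the high-AFP and low-AFP folds were 3.76 and 4.25 in Ly6d, 1.44 and 2.18 in Serpina12, 1.47 and 1.79 in Mup20, 2.24 and 2.91 in Cidec, and 0.27 and 2.16 in Apoa4. Serpina7 in low-AFP was at 0.56. Apoa4 in high-AFP and Serpina7 in low-AFP thus came under 2-fold at that limit. With Cyp2e1 of at least 2500, Apoa4 in high-AFP was at 0.41.

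Other named genes ranked among the 12 most higher against control in high-AFP only. Of these, Alas1 and Tceal8 were at least 2-fold higher in both AFP libraries. Alas1, the rate-limiting enzyme of haem synthesis, was at 195 CPM in high-AFP, 134 CPM in low-AFP and 47.7 CPM in control members (1.83 and 1.32). Sult2a7, a sulphotransferase, was at 82.0, 10.6 and 9.11 CPM (2.27 for high-AFP), and Gadd45g, a stress-response gene, at 131, 29.9 and 30.8 CPM (1.79). A UMI of Sult2a7 was found in 9 of 38 high-AFP members, and 4 cells held 87.3% of its UMIs there. The Gadd45g fold was 0.50 with members thinned to 3000 UMIs and 0.96 at 20% mitochondrial UMIs, both under 2-fold. Cyp4a12a, a male-biased fatty acid hydroxylase, was at 218, 123 and 66.6 CPM (1.57 and 0.80), with a high-AFP fold of 0.38 at Cyp2e1 of at least 2500. Ly6e was at 440, 257 and 157 CPM (1.43 and 0.68), and Tceal8 at 74.5, 70.5 and 23.1 CPM (1.35 and 1.28). The high-AFP fold of Tceal8 was 0.99 when thinned and at Cyp2e1 of at least 2500, and 0.77 with 50 CPM added, all under 2-fold. Serpina1e, of the alpha-1-antitrypsin family, was at 213, 10.6 and 30.8 CPM (2.45), with 54.5% of its high-AFP UMIs in 1 cell. Without that cell its fold was 1.61.

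In low-AFP the higher genes included 2 annexins, proteins that bind membranes. Anxa5 was at 122 CPM in high-AFP, 423 CPM in low-AFP and 104 CPM in control members (0.22 and 1.93), and Anxa2 at 40.2, 109 and 14.7 CPM (1.02 and 2.27). Adgrv1, an adhesion receptor, was at 41.7, 89.8 and 2.80 CPM (2.01 and 2.96), the control value from 4 UMIs. Rad51b, a DNA repair gene, was at 64.1, 145 and 19.6 CPM (1.32 and 2.38). Abhd2, a lipid hydrolase, was at 67.1, 139 and 40.7 CPM (0.61 and 1.56), and the glutathione transferase Gstm3 at 46.2, 93.4 and 25.2 CPM (0.67 and 1.55). The annexins and Gstm3 were thus at least 2-fold higher in low-AFP, while in high-AFP Anxa2 alone of the 3 passed that line.

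Genes lower in both AFP libraries besides the Cyp2c genes and Oat included 2 of acetyl-CoA supply. Acss2, which makes acetyl-CoA from acetate, was at 62.6 CPM in high-AFP, 40.5 CPM in low-AFP and 248 CPM in control members (-1.83 and -2.35). Acly, which makes it from citrate, was at 118, 61.7 and 323 CPM (-1.38 and -2.22). Pltp, the phospholipid transfer protein, was at 19.4, 5.29 and 92.5 CPM (-1.80 and -2.75), the low-AFP ratio from 3 UMIs with an interval of -3.43 to -1.78. Fabp5, a fatty acid binding protein, was at 17.9, 3.52 and 76.4 CPM (-1.63 and -2.68), the low-AFP ratio from 2 UMIs with an interval of -3.29 to -1.68. Slco1a1, an organic anion transporter, was at 142, 37.0 and 376 CPM (-1.35 and -3.04).

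Of the major urinary protein genes besides Mup20, Mup7 and Mup17 were lower in both AFP libraries. Mup17 was at 104 CPM in high-AFP, 8.81 CPM in low-AFP and 416 CPM in control members (-1.90 and -4.50), and Mup11 at 99.9, 21.1 and 158 CPM (-0.62 and -2.44). Mup7 was at 10.4 CPM in high-AFP and 54.7 CPM in control (-1.66), with 0 UMIs in low-AFP. The control level was 10.3-fold what 3 counts would give in low-AFP, leaving out the counting error of control. These paralogs share sequence: 75.5% of the windows in the last 500 bases of Mup7, 71.9% of those of Mup11, 30.7% of those of Mup17 and 7.48% of those of Mup20 occurred in other genes. Their split between family members is therefore uncertain.

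In high-AFP alone, Acot1, an acyl-CoA thioesterase, was at 14.9 CPM against 88.1 CPM in low-AFP and 106 CPM in control members (-2.22 and -0.24 against control). Bcl6, a transcriptional repressor, was at 13.4, 72.2 and 62.4 CPM in high-AFP, low-AFP and control (-1.63 and 0.18), and the zinc finger gene Zfp992 at 10.4, 40.5 and 53.3 CPM (-1.63 for high-AFP). Upp2, a uridine phosphorylase, was at 142, 10.6 and 86.2 CPM (0.66 and -2.23), so the low-AFP value alone was at least 2-fold lower. With Cyp2e1 of at least 2500 the low-AFP fold of Upp2 was -0.97 and the high-AFP fold of Zfp992 was -0.96.

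Hamp, which encodes the iron hormone hepcidin, differed between the AFP libraries. It was at 2400 CPM (2280 to 2520) in high-AFP, 137 CPM (109 to 172) in low-AFP and 1152 CPM (1100 to 1210) in control members. The folds against control were 1.05 (0.91 to 1.19) for high-AFP and -2.98 (-3.36 to -2.61) for low-AFP. Cells varied widely, from 0 to 13174 with a median of 509.5 CPM in high-AFP, from 0 to 1548 with a median of 43.1 CPM in low-AFP, and from 0 to 15220 with a median of 815 CPM in control. The median high-AFP cell lay below the median control cell, opposite to the summed levels. One low-AFP cell held 51.3% of the Hamp UMIs there. After thinning, Hamp was in 27 of 38 high-AFP members (71.1%), 3 of 23 low-AFP members and 69 of 95 control members (72.6%), against 45.0%, 31.6% and 46.1% of T cells, so the low-AFP share was at background. In periportal cells the folds were 0.70 and 0.12. The low-AFP fold was -4.03 in members of at most 20% mitochondrial UMIs. It was -0.73 with Cyp2e1 of at least 2500, and -0.07 in all hepatocytes of at least 3000 UMIs, both under 2-fold.

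Hamp was 1 of 6 midzonal genes, a class that peaks between both zones. In high-AFP against control 1 of the 6, Hamp, was higher and 0 were lower (median -0.42). In low-AFP against control 0 were higher and 4 lower (median -1.57). Beside Hamp these were Hamp2 (149, 15.9 and 77.8 CPM in high-AFP, low-AFP and control, -1.76 for low-AFP), Igfbp2 (121, 51.1 and 185 CPM, -1.67) and Mup3 (4792, 3131 and 8658 CPM, -1.46).

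Some periportal genes were also at least 2-fold lower in low-AFP members. Cps1 was at 1031 CPM in high-AFP, 439 CPM in low-AFP and 1651 CPM in control (-0.67 and -1.89), and Arg1 at 374, 120 and 483 CPM (-0.36 and -1.93). Ass1 was at 1201, 493 and 1250 CPM (-0.06 and -1.32), and Tat, which breaks down tyrosine, at 811, 307 and 1034 CPM (-0.35 and -1.72). Of 21 measured periportal genes in low-AFP against control, 2 were higher and 5 lower (median -0.43), the fifth lower one being Agxt (122, 79.3 and 170 CPM, -1.01). In high-AFP against control 2 of 22 were higher and 0 lower (median 0.02). Cps1 had periportal folds of -0.11 and -0.23 in the same libraries. Of 19 methionine and methyl group genes 0 were higher and 2 lower in low-AFP. Gnmt, which uses up methyl groups, was at 808, 268 and 865 CPM (-1.66 for low-AFP), and Cth, of cysteine synthesis, at 312, 180 and 392 CPM (-1.08 for low-AFP).

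High-AFP against low-AFP members, which share no control library, had 123 of 7726 genes (1.59%) at least 2-fold higher and 130 (1.68%) lower. Hamp (4.03), Serpina1e (3.44), Upp2 (2.88), Hamp2 (2.62) and Mup17 (2.60) were among the most higher. Most lower were Acot1 (-1.98), choline kinase Chka (106, 409 and 244 CPM, -1.85), Anxa5 (-1.71), Cyp2b9 (37.3, 141 and 112 CPM, -1.68), Klf6 (31.3, 122 and 42.1 CPM, -1.67) and Slc17a8 (25.3, 96.9 and 84.8 CPM, -1.60). With Cyp2e1 of at least 2500, Hamp2 (0.89), Mup17 (0.97), Anxa5 (-0.73) and Slc17a8 (-0.89) came under 2-fold. Of 21 periportal genes 5 were higher and 1 lower (median 0.52), of 22 male-biased genes 7 were higher and 1 lower (median 0.53), and of 25 fatty acid oxidation genes 0 were higher and 4 lower (median -0.46). The median over all measured genes was -0.05.

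Some fat synthesis genes were lower in the AFP libraries. Of 17 measured lipogenesis genes, 0 were higher and 4 lower in high-AFP against control (median -0.59), and 0 higher and 5 lower in low-AFP against control (median -0.60). Scd1, which desaturates stearic acid, was at 11174 CPM in high-AFP, 7484 CPM in low-AFP and 19291 CPM in control members (-0.79 and -1.36). Thrsp was at 584, 314 and 806 CPM (-0.46 and -1.33), Acacb at 40.2, 19.4 and 73.6 CPM (-0.73 and -1.51), Elovl6 at 110, 199 and 249 CPM (-1.11 and -0.31), and Me1 at 191, 215 and 403 CPM (-1.04 and -0.88). Acss2 and Acly were the genes of the list past 2-fold in both. In periportal cells the medians were -0.74 and -0.78, below 0 in both zones.

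Cholesterol synthesis genes had medians further below the all-gene median in members (-0.67 for high-AFP and -0.73 for low-AFP against control) than in periportal cells (-0.18 and -0.19). This difference was not tested. Of 23 measured, 0 were higher and 4 lower in high-AFP, and 0 higher and 5 lower in low-AFP. Insig1, a sterol-sensing regulator, was at 422, 275 and 679 CPM in high-AFP, low-AFP and control (-0.67 and -1.27), Idi1 at 52.2, 58.1 and 125 CPM (-1.12 and -0.99), Pmvk at 58.1, 17.6 and 84.1 CPM (-0.47 and -1.77) and Hsd17b7 at 46.2, 75.8 and 117 CPM (-1.18 for high-AFP). Mvd had 2 UMIs in high-AFP, 4 in low-AFP and 38 in control members.

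Of 18 lipid droplet genes 3 were higher and 1 lower in high-AFP (median 0.22), and of 17, 3 were higher and 1 lower in low-AFP (median 0.36). With members thinned to 3000 UMIs the high-AFP median turned to -0.21. The higher ones in both were Cidec, Apoa4 and Plin4, a droplet coat protein at 29.8, 47.6 and 6.31 CPM in high-AFP, low-AFP and control (1.29 and 1.82), and the lower one was Fabp5. Among fatty acid oxidation genes, 1 of 24 was higher and 3 were lower in high-AFP (median -0.09), and 0 of 25 were higher or lower in low-AFP (median 0.26). The lower ones were Acot1, Pdk4, which holds back glucose oxidation (5.96, 44.0 and 35.1 CPM, -1.50 and 0.26), and Cyp4a10, a fatty acid hydroxylase (492, 1397 and 1061 CPM, -1.09 and 0.39).

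**Figure D5:**
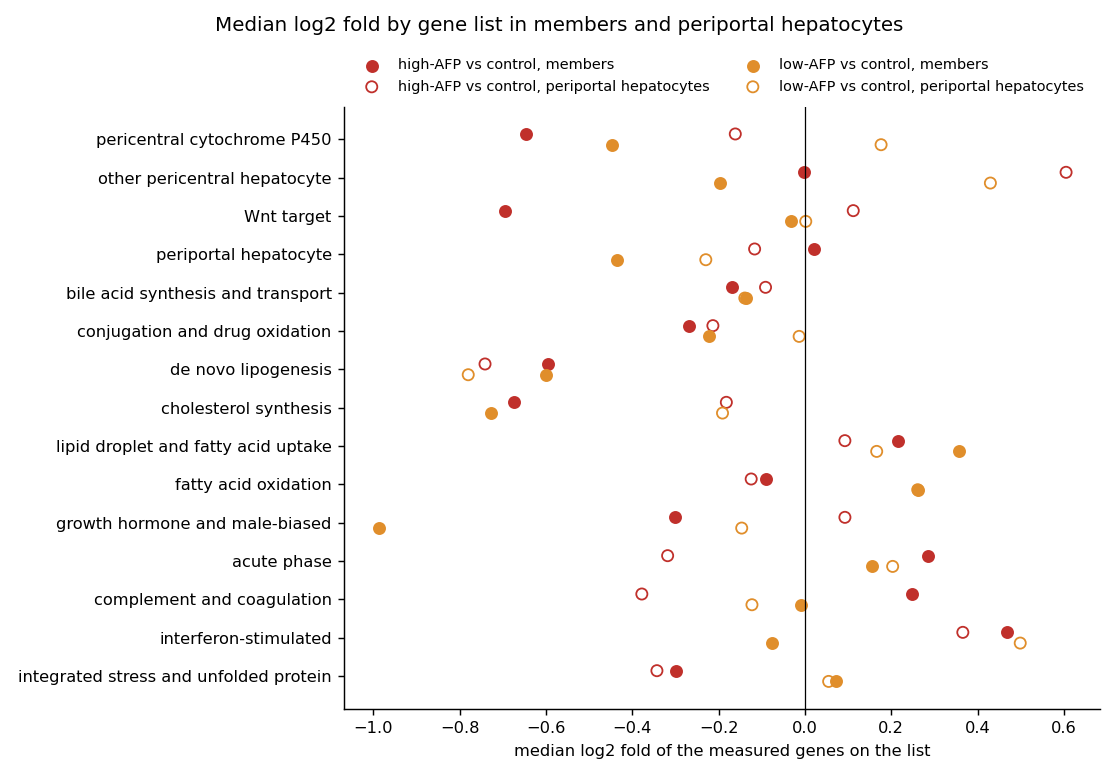
Median log2 fold of 15 gene lists against control, for high-AFP and low-AFP; filled points are members and open points periportal hepatocytes of the same library. Cholesterol synthesis lies lower in members (-0.67 and -0.73) than in periportal cells (-0.18 and -0.19), while lipogenesis is low in both.

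Male-biased liver genes, many under growth hormone control in mice, differed in both directions. In high-AFP against control 4 of 24 were higher and 7 lower (median -0.30), and in low-AFP against control 1 of 25 was higher and 11 lower (median -0.99). Mup20 was the one higher in both. Ugt2b1, a glucuronosyltransferase, was at 146 CPM in high-AFP, 125 CPM in low-AFP and 339 CPM in control members (-1.16 and -1.37), Elovl3, a fatty acid elongase, at 162, 206 and 405 CPM (-1.27 and -0.94), and Cyp7b1, of bile acid synthesis, at 124, 95.1 and 225 CPM (-0.81 and -1.16). Hsd3b5, a steroid dehydrogenase, had 3, 1 and 65 UMIs. Socs2, a feedback inhibitor of growth hormone signalling, was at 43.2, 5.29 and 11.9 CPM (1.28 for high-AFP). Of 5 measured female-biased genes, 1 (Cyp2b13) was higher and 3 (Cyp2b9, Acot3 and Cyp2c69) lower in high-AFP against control (median -1.11). In low-AFP against control, Cyp2b13 was higher and Cyp2c69 lower (median 0.005).

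Of 19 bile acid genes 0 were higher and 2 lower in high-AFP (median -0.17), and likewise in low-AFP (median -0.14), with Slco1a1 lower in both. Of all measured genes 1.25% were lower in high-AFP and 1.43% in low-AFP. Cyp7a1, the rate-limiting enzyme of bile acid synthesis, was at 131, 91.6 and 96.0 CPM in high-AFP, low-AFP and control members. Of 23 acute phase genes 4 were higher and 1 lower in high-AFP (median 0.29), and of 22, 4 were higher and 1 lower in low-AFP (median 0.16). Lcn2, which binds bacterial iron carriers, was at 35.8, 56.4 and 8.41 CPM (1.31 and 1.85), Orm2 at 31.3, 31.7 and 10.5 CPM (1.01 and 1.02), and Serpina3k, the lower one, at 3851, 2708 and 7962 CPM (-1.05 and -1.55). Hpx, which binds haem, was at 3005, 2028 and 1456 CPM (1.04 and 0.48).

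Members of 1 library were unequal in some genes and even in others. The 4 high-AFP, 3 low-AFP and 10 control members with the most Hamp held 44.0%, 74.4% and 38.6% of its UMIs. For Cyp2c29 the same number of cells held 39.6%, 26.5% and 24.8%, for Oat 34.7%, 44.2% and 34.7%, and for Gulo 23.7%, 36.4% and 22.3%. Gulo was found in 38 of 38, 23 of 23 and 93 of 95 cells. Hamp was thus the gene of these 4 held most by few cells in every library.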

How the data were processed

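Single-cell RNA of mouse liver was measured in 4 libraries. The authors deposited whole-number UMI counts for 31053 genes in each barcode, made with Cell Ranger 3.0.2 per the file headers. The submitters' processing notes also name R 3.0, Seurat 3 and mm9, but no coordinate of the files was used. Barcodes were kept with at least 300 genes, 500 UMIs and at most 30% mitochondrial UMIs. Members were chosen by the rule in the text, and doublets were not removed. Their counts were summed per library and given as CPM of nuclear-encoded UMIs, with 10 CPM added before log2. A gene was counted when at least 2-fold different with at least 10 CPM in either library. Sums carry exact Poisson and shares exact (Clopper-Pearson) binomial intervals at 95%. A count of 0 was taken as up to 3 counts. No test was run, since each group is 1 library. HCC had no member and entered no comparison of genes.

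The members and the 37 gene lists were chosen with earlier results of these data known. Named genes were the 12 most higher and 12 most lower against control (6 each way for high-AFP against low-AFP) whose level in the higher library reached 50 CPM, 50 UMIs and 0.25 times the CPM of its non-hepatocyte barcodes. Mitochondrial, ribosomal protein, haemoglobin, antigen receptor, sex-linked marker and unnamed model genes and the genes of the rule were left out. A gene that this rule took is not reported here. The given markers and the list members of largest fold were named too. Other genes in the text were chosen for their role after values were seen. Promoters came from the RefSeq table on GRCm38.p6. Cyp2c54 and Gulo are named only. The counting steps were tested on simulated data.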

Additional observations from a re-analysis of the deposited data

Results flagged for a closer look

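These differences were not tested, and each rests on 1 library a group. Log2 folds against control that pointed one way in members and the other way in periportal hepatocytes, each at least 2-fold, were found for 3 genes. Oat in high-AFP was at -1.73 in members and 1.20 in periportal cells, where the level was 84.1 CPM against 30.9 CPM in control. Non-hepatocyte barcodes, which hold free RNA, had Oat at 184 CPM in high-AFP and 134 CPM in control. Apoa4 in high-AFP was at 1.50 in members and -1.26 in periportal cells. Cyp2a5, which oxidises coumarin, was at -1.62 in low-AFP members and 2.56 in low-AFP periportal cells, where the level was 52.8 CPM against 0.666 CPM in control. Non-hepatocyte barcodes had Cyp2a5 at 66.0 CPM in low-AFP and 5.79 CPM in control. Within members, a gene pointed in opposite directions in the AFP libraries. Hamp was at 1.05 in high-AFP and -2.98 in low-AFP against control. The part of free RNA in these differences was not tested.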

How the results depend on the processing

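No paired analysis was possible because each group is 1 library and the results come from no test. Settings of 20% mitochondrial UMIs, Cyp2e1 of at least 2500 and leaving out the top cell were chosen after seeing the data. Genes are counted below as higher then lower, for high-AFP against control, low-AFP against control, and high-AFP against low-AFP. Of 36 shares under alternatives 26, among them every HCC share, moved by less than the counting interval and 10 by more. These were 0.955%, 0.835% and 0% (high-AFP, low-AFP, control) at 15% mitochondrial UMIs, 1.35% in control at 20%, 0.102%, 0.0712% and 0.0467% at Cyp2e1 of 10000, and 8.38%, 7.40% and 8.82% at 2500. Of 84 gene counts 41 lay within 1.5 times the reported one. Those with a floor of 1 CPM could not change, since 10 CPM were added before log2. Adding 1 CPM gave 347 and 329, 436 and 328, and 463 and 546, and adding 50 CPM gave 22 and 18, 18 and 38, and 29 and 11. Genes of at least 50 CPM gave 48 and 43, 44 and 68, and 63 and 42. Members thinned to 3000 UMIs gave 1286 and 1107, 1163 and 1500, and 2433 and 1861, with all-gene medians of 0.11 and 0.12 against control. All hepatocytes of at least 3000 UMIs in place of members gave 44 lower for high-AFP, 59 and 35 for low-AFP, and 15 and 6 between them. A limit of 20% gave 634 and 469, 705 and 533, and 304 and 249, and Cyp2e1 of at least 2500 gave 62 and 52, 57 and 68, and 34 and 24. Without the top cell 62 and 70 were higher against control, for high-AFP and low-AFP. Of 966 gene folds 793 lay within the counting interval and 169 moved outside it, and of 1237 list medians 225 moved. Settings that change only the floor, to 1 or 50 CPM, cannot alter a gene's fold, so their part of the 793 was fixed in advance. Among folds that were at least 2-fold, 4 changed sign, all with all hepatocytes in place of members: Apoa4 at -1.20 for high-AFP and -0.24 for low-AFP, Serpina1e at -0.23 and Zfp992 at 0.28, both for high-AFP. The cause was not tested, apart from these being other cells. Folds under 2-fold changed sign too, such as Gulo, at -0.01 for low-AFP and at 0.81 with all hepatocytes. Of 26, 26 and 12 named genes at least 2-fold in the comparisons, 26, 26 and 12 stayed so without the top cell, 22, 25 and 12 at 20% mitochondrial UMIs, 22, 24 and 8 at Cyp2e1 of 2500, 23, 26 and 11 when thinned, 21, 25 and 11 with 50 CPM added, and 10, 17 and 5 with all hepatocytes. No fold was taken at 15% mitochondrial UMIs, at Cyp2e1 of 10000 or without members holding a marker UMI of other cells, since fewer than 5 cells of a library were left. Depth limits genes under 10 CPM most, where 1 UMI is a large part of the level.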

Other observations

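Other gene groups are given in brief. Of all measured genes, 1.3% were at least 2-fold higher and 1.25% lower in high-AFP against control members. In low-AFP against control these shares were 1.41% and 1.43%. Of 11 measured oncofetal and carcinoma-associated genes 4 were at least 2-fold higher in low-AFP than in control members (median log2 fold 0.94), and of 10, 2 in high-AFP (median 0.58), none lower in either. One of the low-AFP genes, Cd63, had 0 UMIs in control. In periportal cells 7 were higher in high-AFP and 6 in low-AFP. Ccnd1, cyclin D1, was at 19.4 CPM in high-AFP, 54.6 CPM in low-AFP and 25.2 CPM in control members, while its periportal folds were 1.34 and 2.68. Spp1, osteopontin, was at 17.9, 8.81 and 7.01 CPM in members, with periportal folds of 3.65 and 2.86. Afp, the fetal liver protein of the group labels, had 0 UMIs in the members of all 3 libraries. Cdkn1a, the cell cycle inhibitor p21, was at 14.9, 74.0 and 18.9 CPM (1.54 for low-AFP). Proliferation genes Mki67, Top2a and Ccnb1 were at 0.

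Clock output genes stood apart in high-AFP members. Dbp was at 65.6 CPM, against 6.31 CPM in control members (2.21) and 1 UMI in low-AFP members. Tef was at 64.1 CPM in high-AFP, 17.6 CPM in low-AFP and 26.6 CPM in control (1.02 and -0.41), and Cry1 at 4.47 CPM from 3 UMIs, 22.9 and 25.9 CPM. Npas2 had 0 UMIs in high-AFP, 2 in low-AFP and 16 in control. Of 16 clock genes 2 were higher and 2 lower in high-AFP, and 0 of 15 in low-AFP. The labels give no time of day of collection.

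Of 19 interferon genes 2 were higher in high-AFP than in control members, Ifi27 (279, 88.1 and 104 CPM in high-AFP, low-AFP and control, 1.34) and Ifi27l2b (64.1, 54.6 and 22.4 CPM, 1.19), and 0 of 18 in low-AFP. All 4 measured MHC class II genes, typical of antigen-presenting cells, were higher in high-AFP (median 1.31). Cd74 was at 73.0, 35.2 and 18.2 CPM, with 65.3% of its high-AFP UMIs in 1 cell. The summed immune markers were at 168, 136 and 119 CPM, and their part in this was not tested. Immediate early genes summed to 2811, 3769 and 3298 CPM, with Fos at 124, 280 and 354 CPM (-1.44 and -0.33). Mt1, a metal-binding protein, was at 53.7, 40.5 and 9.11 CPM (1.74 and 1.40), with 55.6% of its high-AFP UMIs in 1 cell. Slc40a1, the iron exporter ferroportin, was at 71.5, 104 and 38.6 CPM (0.75 and 1.23).

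Of 27 complement and coagulation genes 0 were higher or lower in high-AFP and 1 was lower in low-AFP, F7. Of 20 transcription factors of hepatocytes 1, Cebpb, was higher in high-AFP and 0 of 19 in low-AFP. NRF2 genes had medians of -0.01 and 0.33, glutathione transferase genes of 0.02 and -0.28, and conjugation genes of -0.27 and -0.22.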
